A study of Rattus norvegicus with 8 samples.

Results

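The 7 genes described here serve GABAergic inhibition from the synthesis of the transmitter to the postsynaptic membrane: Gad1 and Gad2 (GABA synthesis), Slc32a1 (vesicular transport), Gphn and Nlgn2 (the inhibitory postsynapse), and Gabbr1 and Gabbr2 (the metabotropic GABA-B receptor). They were chosen by symbol, with earlier results of these data known. Each had 1 entry among the 28909 gene symbols counted, and all 7 had enough reads to be among the 14309 symbols tested.

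GABA, the main inhibitory transmitter of the mature hippocampus, is made from glutamate by the glutamate decarboxylases GAD67 (Gad1) and GAD65 (Gad2) and loaded into synaptic vesicles by the transporter VGAT (Slc32a1), and these genes mark GABAergic interneurons. On the receiving neuron, the scaffold gephyrin (Gphn) holds GABA-A receptors in place together with the adhesion molecule neuroligin-2 (Nlgn2). The GABA-B receptor is an obligate heterodimer in which the Gabbr1 subunit binds GABA and the Gabbr2 subunit couples to G proteins, and it acts on both sides of the synapse, in excitatory and inhibitory neurons and in astrocytes.

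Embryonic hippocampal neurons of Sprague Dawley rats were grown on porous filter inserts, whose pores let axons and dendrites but not cell bodies pass to the lower side. Cultures received the GABA-A receptor antagonist picrotoxin (PTX) or its vehicle, ethanol, from day in vitro (DIV) 18, and were lysed 48 h later at DIV 20. RNA from the upper side of the insert (somata) and from the lower side (processes) was depleted of ribosomal RNA and sequenced, with 2 libraries for each of the 4 conditions. The comparison of PTX with vehicle asks which transcripts change during prolonged network activity, and the comparison of processes with somata asks where they lie. All groups are primary cultures and share the filter insert, the age and the RNA-seq protocol. The culture is a mixture of cell types. Of the marker lists, pan-neuronal genes summed to between 1654 and 5453 CPM (counts for each 1e6 counts of a library, after its total was scaled by TMM). Astrocyte genes summed to between 2756 and 14255 CPM, and microglia genes to between 0.587 and 2.12 CPM. In such bulk libraries fewer cells of a type and less RNA per cell cannot be told apart. Because the labels do not say that replicates came from separate cultures or animals, p-values measure the spread between these libraries, which may be technical.

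The libraries held between 12290890 and 14520831 counts in somata and between 15120334 and 18455662 in processes. Mitochondrial ribosomal RNA took 21.1% to 24.8% of the somata counts and 64.9% to 68.3% of the process counts, which left the rest of the genome, outside the mitochondrial genes, from 4702054 to 5491237 counts per process library and from 9517542 to 11227599 per somata library. Levels are therefore given as CPM after TMM scaling, which sets a common scale by the bulk of the genes. Of the 7 genes, Slc32a1 had the fewest reads, with between 143 and 212 per process library, and Gabbr1 the most, with between 14049 and 19783 in the same libraries. Transcript lengths were not used, so levels are compared between libraries for 1 gene and not between genes.

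The bases before the RefSeq start sites of the genes whose transcripts rose (Gad1 and Gad2) or fell (Gabbr2) with PTX are shown with those of Slc32a1, which shares its cell type with Gad1 and Gad2 but did not pass the test. The coordinates are those of the RefSeq assembly GRCr8, a later build than the one the reads were counted on. They are chr3:75777202-75777259 on the plus strand for Gad1 (58 bases, ending just before the outermost start of the gene in RefSeq), chr17:89671468-89671717 on the plus strand for Gad2, chr3:167686995-167687244 on the plus strand for Slc32a1 and chr5:66083696-66083945 on the minus strand for Gabbr2. Each sequence runs 5′ to 3′ on the strand of its gene, and capitals mark a match on either strand to TATAAA (the TATA box) or TGACG (the core of the cAMP response element, CRE).
Gad1: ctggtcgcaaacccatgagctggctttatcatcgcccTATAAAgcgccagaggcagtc
Gad2: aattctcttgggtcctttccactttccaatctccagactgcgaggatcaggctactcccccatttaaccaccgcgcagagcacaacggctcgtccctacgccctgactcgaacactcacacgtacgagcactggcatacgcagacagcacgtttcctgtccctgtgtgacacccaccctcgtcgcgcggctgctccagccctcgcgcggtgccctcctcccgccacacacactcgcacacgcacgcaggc
Slc32a1: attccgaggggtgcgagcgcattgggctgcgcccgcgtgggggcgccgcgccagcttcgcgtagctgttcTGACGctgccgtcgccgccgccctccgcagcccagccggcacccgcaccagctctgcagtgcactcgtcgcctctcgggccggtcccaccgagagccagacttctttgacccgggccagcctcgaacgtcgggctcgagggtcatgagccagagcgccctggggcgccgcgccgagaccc
Gabbr2: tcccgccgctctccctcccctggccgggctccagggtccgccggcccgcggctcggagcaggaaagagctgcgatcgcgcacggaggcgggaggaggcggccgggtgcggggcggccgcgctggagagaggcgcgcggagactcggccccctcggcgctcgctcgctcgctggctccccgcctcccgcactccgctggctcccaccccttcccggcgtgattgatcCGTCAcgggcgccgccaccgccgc

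The TATA box letters of Gad1 lay 213 bases before the RefSeq start at which its window of 250 bases ended. That start lies inside the gene, downstream of the outermost start at which the printed bases end. The letters thus lay only a short way before the outermost start. The CRE core of Slc32a1 lay 180 bases before its start, and that of Gabbr2, read on the opposite strand as CGTCA, lay 24 bases before its start. Over the 250 bases before 33469 rat start sites, 12.9% held TATAAA and 18.2% held TGACG. None of the 7 genes held the full CRE TGACGTCA (1.59% of all start sites), the AP-1 letters TGANTCA (6.34%) or the homeodomain core TAATTA (4.86%) in these 250 bases, where TGACGTCA also contains TGACG. The windows of all 7 genes were rich in G and C, from 62% for Gad2 to 78.8% for Gabbr2, against a median of 51.2% over all windows. They held between 20 (Nlgn2) and 39 (Gabbr2) CpG dinucleotides, against a median of 5.

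Upon 48 h of PTX, the transcripts of both GABA-synthesizing enzymes rose, while that of the vesicular transporter that loads GABA did not pass the test. In somata, Gad1 rose 1.77-fold and Gad2 1.89-fold, and Gabbr2, the G protein-coupling subunit of the GABA-B receptor, fell to 0.728-fold of its control level. In processes Gad2 rose 1.90-fold. Gphn, Nlgn2, Gabbr1 and Slc32a1 passed the test for PTX in neither compartment, with log2 fold changes between -0.09 and 0.16. By edgeR's quasi-likelihood test with Benjamini-Hochberg adjustment over all genes and a threshold of 0.05, 3 of the 7 genes were called in somata (2 up, 1 down), where 3.59% of all genes tested were called, and 1 of 7 in processes (Gad2, up), where 3.74% were called.

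**Figure D1:**
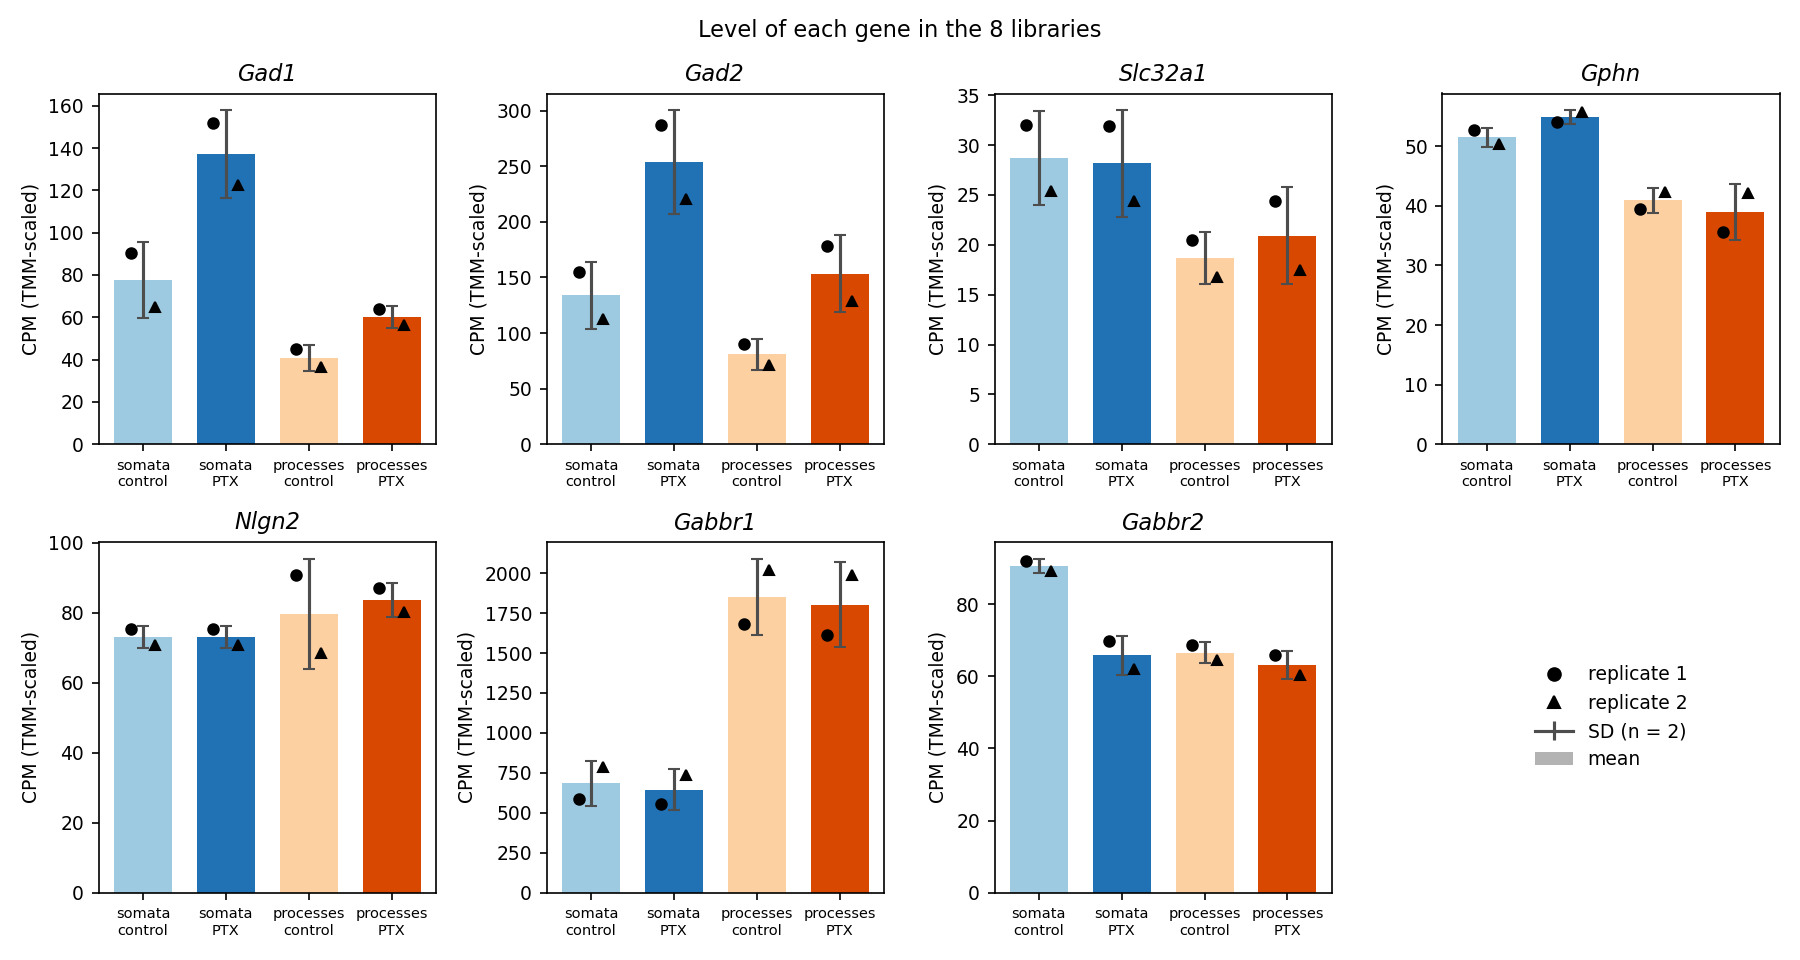
Level of each gene (vertical axes, CPM after TMM scaling, each starting at 0) in the 4 conditions, with bars for the mean, whiskers for the SD (n = 2), circles for replicate 1 and triangles for replicate 2. Both PTX libraries lie above both control libraries of the same compartment for Gad1 and Gad2, and on this scale, but not by library size alone, the process libraries lie above the somata libraries for Gabbr1.

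Gad1, which encodes the cytosolic decarboxylase GAD67, was measured at 90.4 and 64.8 CPM in the 2 somata control libraries and at 152 and 122 CPM in the 2 somata PTX libraries. In processes it was at 44.9 and 36.3 CPM in control and at 63.7 and 56.5 CPM upon PTX. In both compartments the lower PTX library lay above the higher control library. The log2 fold change was 0.82 (SE 0.171, adjusted p = 0.0247) in somata and 0.56 (SE 0.185, adjusted p = 0.14) in processes. Blocking on the replicate number gave a change in processes of 0.57 and an adjusted p of 0.000638, so that 2 of the 7 genes were called there, where 11.2% of all genes were called. The mean of both compartments gave a log2 fold change of 0.69 (SE 0.126, adjusted p = 0.00601). Here the fit without the block takes the libraries of the 2 compartments as independent, although libraries with the same replicate number were paired.

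Gad2, which encodes the vesicle-associated decarboxylase GAD65, was at 155 and 113 CPM in somata control libraries and at 287 and 221 CPM in somata PTX libraries. In the process libraries Gad2 was at 90.5 and 71.2 CPM in control and at 178 and 129 CPM upon PTX. Again no PTX library reached down to the control libraries of its compartment. The log2 fold change was 0.92 in somata (SE 0.204, adjusted p = 0.0328) and 0.92 in processes (SE 0.211, adjusted p = 0.0384), and the mean of both was 0.92 (SE 0.147, adjusted p = 0.00286). The calls of Gad1 and Gad2 in somata did not hold without somata control replicate 2, where the log2 fold changes were 0.59 (adjusted p = 0.215) and 0.70 (adjusted p = 0.277), nor without somata PTX replicate 1, where they were 0.65 (adjusted p = 0.186) and 0.71 (adjusted p = 0.215). The call of Gad2 in processes was lost without any 1 of the 4 process libraries, with log2 fold changes from 0.67 without processes PTX replicate 1 (adjusted p = 0.222) to 1.14 without processes PTX replicate 2 (adjusted p = 0.0524), and values of 1.11 (adjusted p = 0.125) and 0.76 (adjusted p = 0.185) without control replicates 1 and 2. With any 1 library left out, the log2 fold changes for the mean of both compartments lay between 0.58 and 0.82 for Gad1 and between 0.80 and 1.05 for Gad2. The 2 compartments in this mean were not shown to be independent replicates of the treatment.

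Slc32a1, the vesicular GABA transporter, was at 32.0 and 25.4 CPM in somata control libraries and at 31.9 and 24.4 CPM in somata PTX libraries. The process libraries held it at 20.5 and 16.8 CPM in control and at 24.3 and 17.5 CPM upon PTX. PTX and control libraries overlapped in both compartments. The log2 fold change was -0.02 in somata (SE 0.182, adjusted p = 0.976, 95% interval -0.43 to 0.38) and 0.16 in processes (SE 0.212, adjusted p = 0.779, 95% interval -0.31 to 0.63), so that a change as large as that of Gad2 lay outside both intervals.

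Because Gad1, Gad2 and Slc32a1 mark the same neurons, their read counts were also divided within each library, which removes the scaling between libraries. The ratio of Gad2 to Slc32a1 reads was 4.85 and 4.44 in somata control libraries and 8.98 and 9.04 in somata PTX libraries. In processes it was 4.41 and 4.24 in control and 7.31 and 7.37 upon PTX. The 4 PTX libraries thus stood above all 4 control libraries, and the libraries of 1 condition differed little. The ratio of Gad1 to Slc32a1 reads went from 2.82 and 2.55 to 4.75 and 5.02 in somata and from 2.19 and 2.16 to 2.62 and 3.23 in processes. The mean difference was 0.86 for Gad2 and 0.64 for Gad1 on the log2 scale. In an exact two-sided permutation test within compartments (36 assignments), p was 0.0556 for each, the smallest this design allows, and 0.0695 after adjustment over the 10 ratio comparisons made. The ratio of Gad2 to Gad1 reads differed by 0.09 on the log2 scale between PTX and control in somata and by 0.34 in processes (mean 0.22, exact permutation p = 0.0556, adjusted p = 0.0695).

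**Figure D2:**
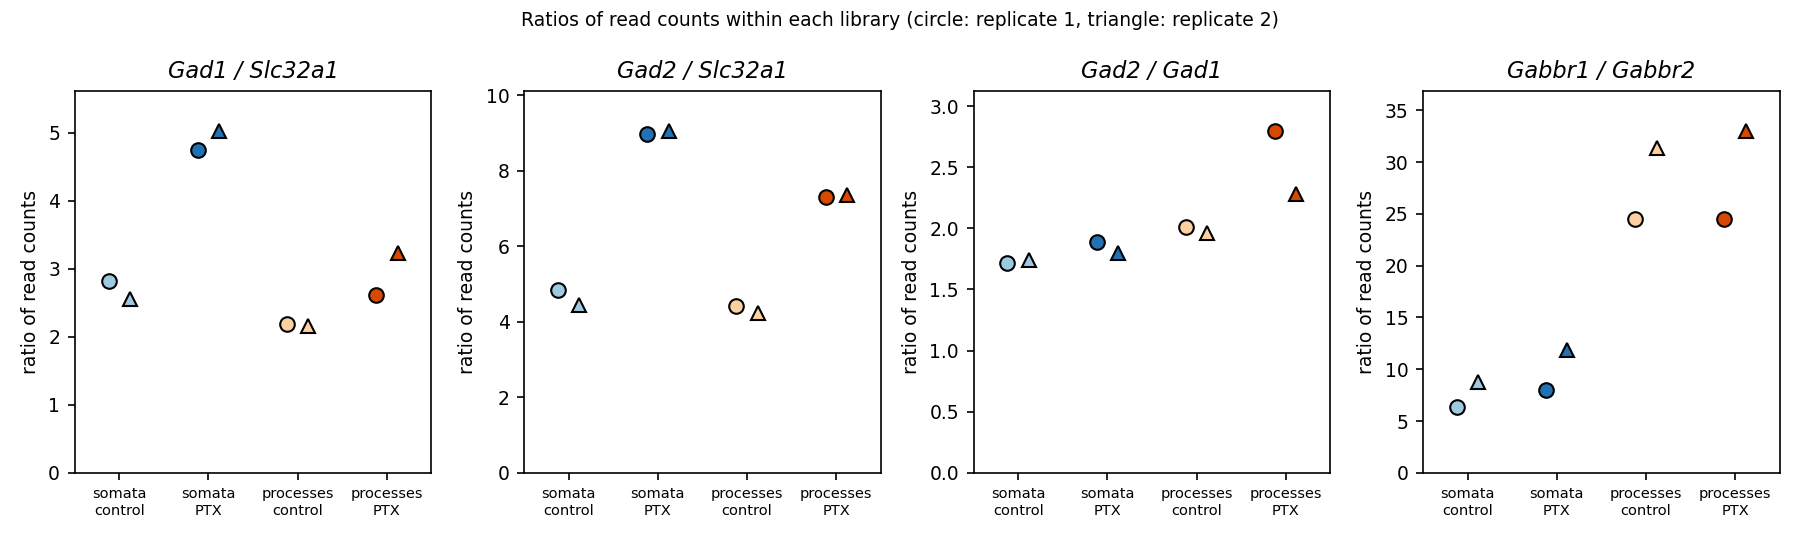
Ratio of the read counts of a pair of genes within each library (vertical axes, linear, starting at 0), with circles for replicate 1 and triangles for replicate 2 of each condition. The ratio of Gad2 to Slc32a1 lies between 4.24 and 4.85 in the control libraries and between 7.31 and 9.04 in the PTX libraries, and the ratio of Gabbr1 to Gabbr2 is higher in every process library than in every somata library.

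Gene lists for cell types were read beside these changes. Of the GABAergic neuron identity list (transcription factors and other genes that define interneurons, such as Dlx1 and Lhx6), 10 of 14 genes were tested and 0 were called for PTX in somata, in processes or for the mean of both by the edgeR quasi-likelihood test. With the replicate block 1 fell in somata and 1 in processes, where 14% and 11.2% of all genes were called, and 3 fell for the mean of both, where 21% were called, among them Dlx1 (log2 fold change -0.48, adjusted p = 0.0247 against 0.157 without the block). The median log2 fold change of the mean of both was -0.18, against -0.01 over all genes. The list summed to between 119 and 124 CPM in somata control libraries and to between 105 and 108 CPM upon PTX, and in processes to between 114 and 122 CPM in control and between 113 and 121 CPM upon PTX. The glutamatergic neuron list summed to between 446 and 470 CPM in somata control libraries and to between 296 and 321 CPM upon PTX, and to between 747 and 1006 CPM and between 530 and 531 CPM in the same order in processes. Most of the process sum in control libraries was Camk2a, which went there from 772 and 572 CPM to 234.5 and 258 CPM. In processes 4 of the 9 genes fell and 1 rose, where 3.74% of all genes were called. The 1 that rose was Slc17a7, a vesicular glutamate transporter (log2 fold change 0.73, adjusted p = 0.0172 by the quasi-likelihood test). In somata the log2 fold change of Slc17a7 was -0.33 (adjusted p = 0.249, and 0.0182 with the replicate block). Its response in processes minus that in somata was 1.07 on the log2 scale (adjusted p = 0.758, and 0.000451 with the replicate block). For the mean of both compartments, where 10% of all genes were called, 6 of the 9 genes of this list fell, with log2 fold changes of -1.49 for the transcription factor Neurod6, -1.44 for Neurod1 and -1.29 for the kinase Camk2a, and 2 rose, among them Slc17a6 (0.80), a vesicular glutamate transporter. The part of these shifts in the rise of Gad1 and Gad2 was not tested.

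Of the peptides and calcium-binding proteins of interneuron types, 9 of 11 genes were tested, and for the mean of both compartments Tac1, the precursor of substance P, rose (log2 fold change 1.52, SE 0.413, adjusted p = 0.041) and Calb2 (calretinin) fell by 0.62 on the log2 scale (adjusted p = 0.0486). For this mean 10% of all genes tested were called. Of the 9 log2 fold changes 6 were above 0. With the replicate block 3 genes rose and 2 fell, where 21% of all genes were called. Besides Tac1, the peptides Npy (adjusted p = 0.00635) and Sst (adjusted p = 0.0115) rose. Besides Calb2 (adjusted p = 6.32e-05), Nos1 fell (adjusted p = 6.25e-05). Without the block Nos1 had a log2 fold change of -0.60 (adjusted p = 0.0552). Tac1 was at 1.70 and 0.823 CPM in somata control libraries and at 10.6 and 5.97 CPM upon PTX, but at no more than 1.49 CPM in any process library. By the quasi-likelihood test its log2 fold change was 2.72 in somata (adjusted p = 0.00425) and 0.32 in processes (adjusted p = 0.88).

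Gphn, the scaffold of inhibitory postsynapses, was at 52.7 and 50.4 CPM in somata control libraries and at 54.1 and 55.7 CPM upon PTX. Its process levels were 39.5 and 42.4 CPM in control and at 35.6 and 42.2 CPM upon PTX. The PTX libraries were slightly above the control libraries in somata and overlapped them in processes. The log2 fold change was 0.09 in somata (SE 0.11, 95% interval -0.15 to 0.33) and -0.07 in processes (SE 0.12, 95% interval -0.34 to 0.19), with adjusted p of 0.795 and 0.83.

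Nlgn2, which recruits gephyrin to inhibitory contacts, was at 75.3 and 70.7 CPM in somata control libraries and at 75.2 and 70.9 CPM upon PTX. Process libraries held 90.8 and 68.5 CPM in control and at 86.9 and 80.0 CPM upon PTX. Control and PTX libraries overlapped in both compartments, and the widest spread was that of the processes control libraries. The log2 fold change was 0.00 in somata (SE 0.131, 95% interval -0.29 to 0.29, adjusted p = 1) and 0.07 in processes (SE 0.136, 95% interval -0.23 to 0.37, adjusted p = 0.865).

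Gabbr1, the GABA-binding subunit of the GABA-B receptor, was at 586 and 784 CPM in somata control libraries and at 557 and 735 CPM upon PTX. In processes it was at 1680.3 and 2019.7 CPM in control and at 1613 and 1989 CPM upon PTX. In all 4 conditions replicate 1 lay below replicate 2, and the PTX and control libraries overlapped. The log2 fold change was -0.09 in somata (SE 0.19, 95% interval -0.51 to 0.33, adjusted p = 0.907) and -0.04 in processes (SE 0.19, 95% interval -0.46 to 0.38, adjusted p = 0.958).

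Gabbr2, its partner, was at 92.0 and 89.1 CPM in somata control libraries and at 69.7 and 62.1 CPM upon PTX. In processes it was at 68.6 and 64.5 CPM in control and at 65.8 and 60.3 CPM upon PTX. The somata control libraries stood above the other 6 libraries, which all lay between 60.3 and 69.7 CPM. In somata Gabbr2 fell by 0.46 on the log2 scale (SE 0.106, adjusted p = 0.0392). In processes the log2 fold change was -0.08 (SE 0.111, adjusted p = 0.796, 95% interval -0.32 to 0.17). The call in somata did not hold without any 1 of the 4 somata libraries, with log2 fold changes of -0.44 and -0.49 without control replicates 1 and 2 and of -0.55 and -0.39 without PTX replicates 1 and 2, and adjusted p between 0.115 and 0.267.

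**Figure D3:**
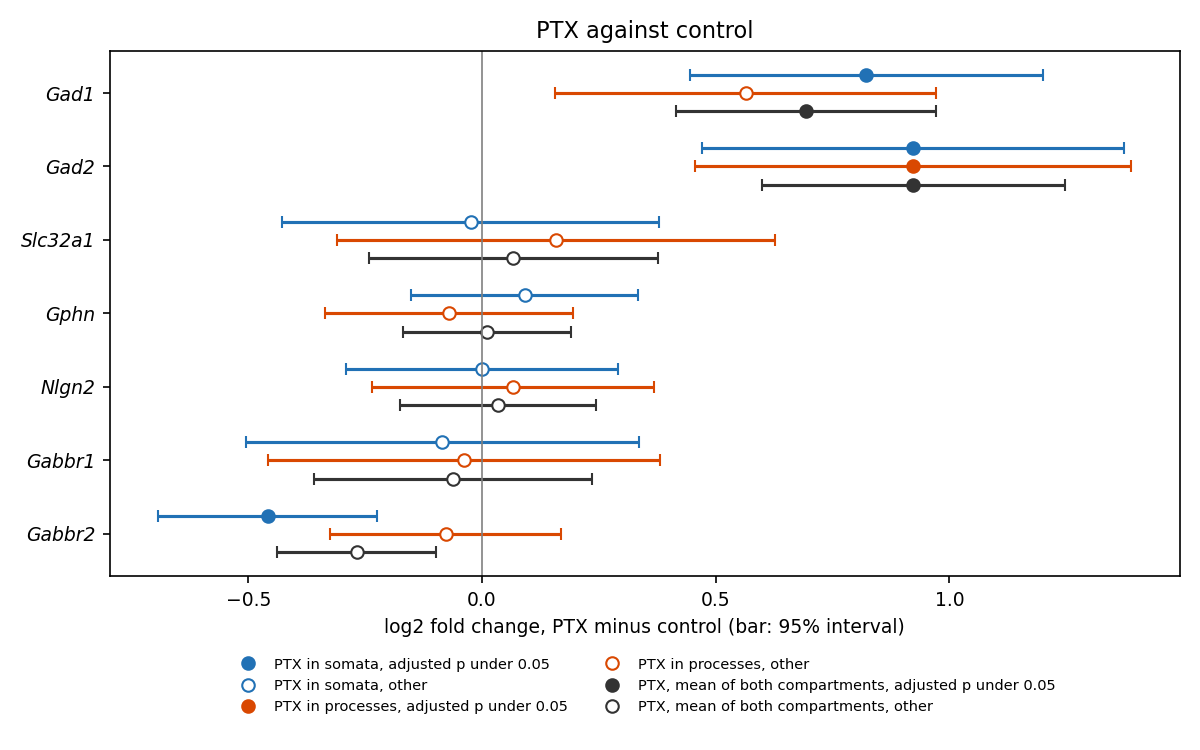
Log2 fold change, PTX minus control (horizontal axis), of each gene in somata (blue), in processes (orange) and for the mean of both compartments (black), with 95% intervals as bars and filled points for an adjusted p under 0.05. Gad1 and Gad2 lie to the right of 0 in both compartments, Gabbr2 lies to the left of 0 in somata at -0.46, and the intervals of the other 4 genes include 0.

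For the mean of both compartments, 2 of the 7 genes were called, Gad1 and Gad2, where 10% of all genes tested were called. With the replicate number as a block Gabbr2 was called as well, with an adjusted p of 0.00333 against 0.0519 without it, which made 3 of 7 where 21% of all genes were called. A test of whether the response in processes differed from the response in somata (the interaction) called 0 of the 7 genes and 0% of all genes by the edgeR quasi-likelihood test, while 572 of 14309 genes had an unadjusted p under the threshold. The likelihood ratio test and DESeq2 called 4 genes each for the interaction and the fit with the replicate block 15 (0.105% of all genes), none of the 7 among them. For Gabbr2 the interaction was 0.38 on the log2 scale (SE 0.154), with an unadjusted p of 0.0313 and an adjusted p of 1 in the edgeR fit. For Gad1 it was -0.26 (95% interval -0.81 to 0.29) and for Gad2 0.00 (95% interval -0.62 to 0.63). A difference between the compartments in the response of Gabbr2 or Gad1 was thus not shown at this depth.

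The other genes of the pathway were read from lists. Of the GABA uptake and breakdown genes, 5 of 6 were tested. Slc6a11, a GABA transporter found mostly in astrocytes, was the 1 called for PTX in somata, where 3.59% of all genes were called. With the replicate block 2 of the 5 fell in somata, where 14% of all genes were called. Slc6a11 was at 38.9 and 47.6 CPM in somata control libraries and at 22.4 and 27.2 CPM upon PTX, and fell by 0.80 on the log2 scale (SE 0.155, adjusted p = 0.0179). In processes none of the 5 was called, where 3.74% of all genes were called, and Slc6a11 had a log2 fold change of -0.63 (adjusted p = 0.0743). With the replicate block Slc6a11 was called there (adjusted p = 0.000803), where 11.2% of all genes were called. The astrocyte list summed to between 3651 and 4077 CPM in somata control libraries and to between 2756 and 3799 CPM upon PTX, and its part in the fall of Slc6a11 was not tested.

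Of 17 partners of gephyrin and neuroligin-2, 16 were tested, and Iqsec3, an exchange factor for Arf GTPases that binds gephyrin, rose in both compartments. It was at 72.5 and 61.8 CPM in somata control libraries and at 119 and 118 CPM upon PTX, and at 329 and 269 CPM in processes control libraries and at 545 and 510 CPM upon PTX. Its log2 fold change was 0.82 in somata (SE 0.133, adjusted p = 0.00806) and 0.82 in processes (SE 0.132, adjusted p = 0.00853). For the mean of both compartments 3 partners fell. Among them Mdga1, which binds neuroligin-2 and keeps it from neurexin, fell by 0.80 on the log2 scale (adjusted p = 0.0167) and Shisa7, an auxiliary subunit of GABA-A receptors, fell by 0.59 (adjusted p = 0.0048). The remaining 12 genes did not pass the test, although with the replicate block 6 partners fell in place of 3. The median over the 16 was -0.11 against -0.01 over all genes.

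Of 13 GABA-A receptor subunits tested out of 19, 2 fell for the mean of both compartments, Gabra5 by 0.63 on the log2 scale (adjusted p = 0.00276) and Gabrb1 by 0.35 (adjusted p = 0.0183). Gabra5, a subunit of extrasynaptic receptors, was at 110 and 103 CPM in somata control libraries and at 63.1 and 61.2 CPM upon PTX. The median of the 13 subunits was 0.02. Of a list of 10 genes for auxiliary subunits of the GABA-B receptor, the GIRK potassium channels that it opens and the G proteins it couples to, 6 were tested, which were 3 channels and 3 G proteins and no auxiliary subunit, and 1 was called for that mean: Kcnj6 (GIRK2) fell by 0.63 on the log2 scale (SE 0.121, adjusted p = 0.00881). Kcnj6 went from 16.2 and 15.2 CPM to 11.97 and 9.74 CPM in somata and from 9.70 and 8.10 CPM to 5.28 and 5.53 CPM in processes. The shares called were 4 of 16 partners, 2 of 13 subunits and 1 of 6 GIRK and G protein genes, beside the 10% of all genes. With the replicate block the shares were 7 of 16 (1 up, 6 down), 7 of 13 (3 up, 4 down) and 3 of 6 (all down), beside 21% of all genes.

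**Figure D4:**
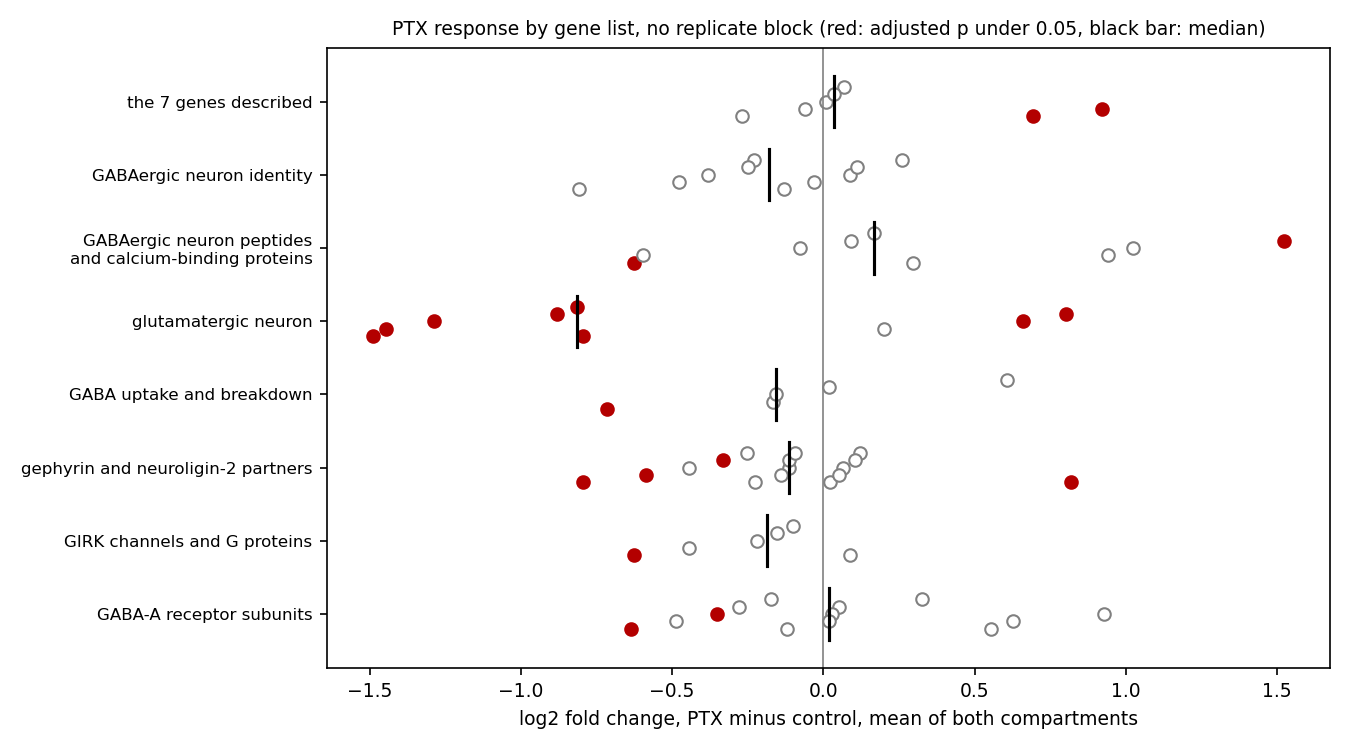
Log2 fold change of PTX minus control, mean of both compartments (horizontal axis), for each tested gene of the lists named at the left, with red points for an adjusted p under 0.05, open points for other genes and a black bar for the median of the list. Gad1 (0.69) and Gad2 (0.92) are the red points among the 7 genes described, the 10 GABAergic identity genes are all open in this fit without the replicate block, and 6 of 9 glutamatergic genes are red at the left of 0.

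Between the compartments, the transcripts of the GABA-synthesizing and GABA-loading proteins were relatively scarcer in processes, and Gabbr1 was relatively more abundant there on the TMM scale, a direction that turns with library size as the only scaling (log2 fold change -0.37 in control cultures). In control cultures Gad1 was at 0.524-fold, Gad2 at 0.604-fold and Slc32a1 at 0.651-fold of their somata levels, and Gabbr1 was at 2.70-fold. By the edgeR quasi-likelihood test 6 of the 7 genes were called in control cultures (1 higher and 5 lower in processes), where 47.7% of all genes tested were called (57.8% with the replicate block, again with 6 of the 7), and 4 of 7 in PTX cultures (1 higher and 3 lower), where 49.8% were called. Nearly every second gene differed between the compartments, so the counts by themselves say little about these 7 genes. The control libraries of each compartment also enter the PTX comparisons, so the sets of values are not independent.

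**Figure D5:**
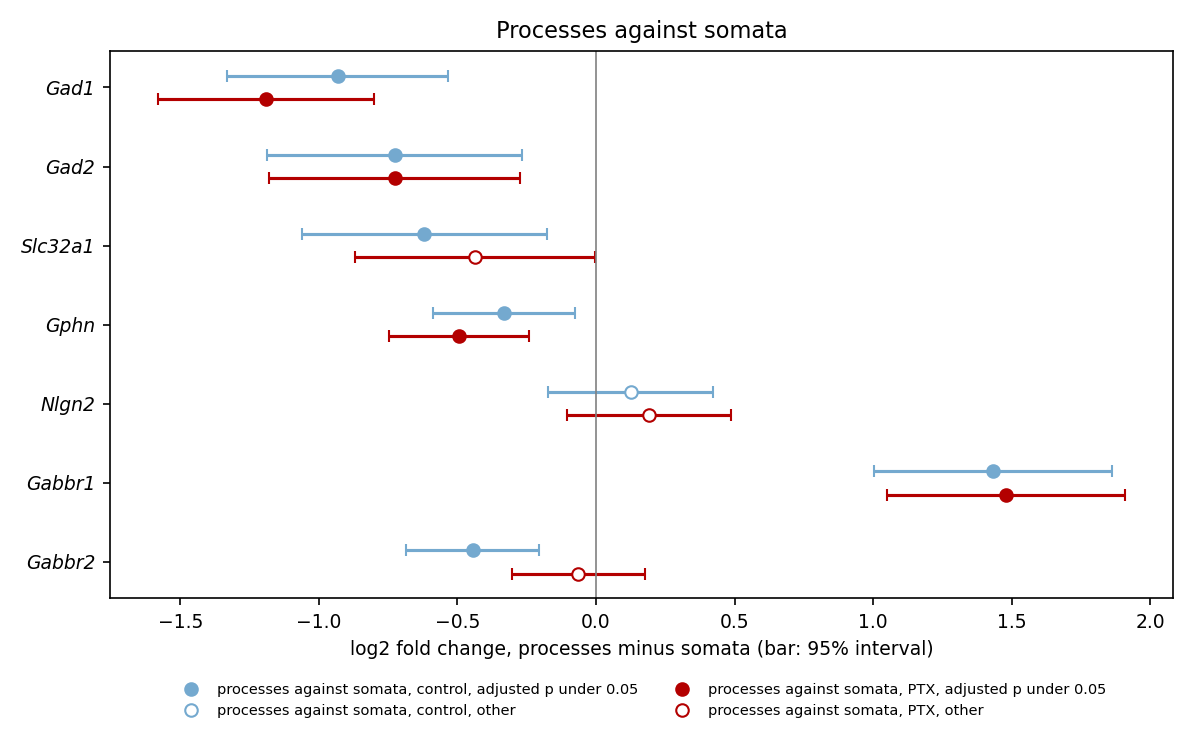
Log2 fold change, processes minus somata (horizontal axis), of each gene in control (blue) and PTX (red) cultures, with 95% intervals as bars and filled points for an adjusted p under 0.05. With TMM scaling Gabbr1 lies at 1.43 and 1.48, Nlgn2 lies just right of 0 and the other 5 genes lie left of 0, while with library size as the only scaling Gabbr1 (-0.37 and -0.34) and Nlgn2 (-1.70 and -1.64) lie left of 0 as well.

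Gad1 was lower in processes, its log2 fold change being -0.93 (SE 0.18, adjusted p = 0.00169) in control and of -1.19 (SE 0.176, adjusted p = 0.000279) in PTX cultures. For Gad2 the values were -0.73 (SE 0.209, adjusted p = 0.015) and -0.73 (SE 0.205, adjusted p = 0.0131). For Slc32a1 they were -0.62 (SE 0.199, adjusted p = 0.0257) and -0.44 (SE 0.196, adjusted p = 0.0875). With the replicate number as a block Slc32a1 was called in PTX cultures too (adjusted p = 0.00172), which made 5 of 7 where 59.5% of all genes were called. The control calls of Gad2 and Slc32a1 were lost without somata control replicate 1 (adjusted p = 0.128 and 0.158) and without processes control replicate 2 (adjusted p = 0.12 and 0.164). In PTX cultures that of Gad2 was lost without somata PTX replicate 1 (adjusted p = 0.101) and without processes PTX replicate 2 (adjusted p = 0.115), and Slc32a1 was called without somata PTX replicate 2 (adjusted p = 0.0405) or processes PTX replicate 1 (adjusted p = 0.0358). All Gad1, Gad2 and Slc32a1 levels were higher in replicate 1 than in replicate 2 of the same condition.

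Gphn had log2 fold changes between processes and somata of -0.33 (SE 0.115, adjusted p = 0.0353) in control and -0.49 (SE 0.115, adjusted p = 0.00466) in PTX cultures, and the process libraries lay below the somata libraries of the same treatment. The control call was lost without any 1 of the 4 control libraries, with adjusted p between 0.0592 and 0.153. Nlgn2, by contrast, had log2 fold changes of 0.13 (SE 0.134, adjusted p = 0.466) and 0.19 (SE 0.134, adjusted p = 0.256). The ratio of Gphn to Nlgn2 reads lay between 0.699 and 0.786 in the somata libraries and between 0.410 and 0.619 in the process libraries, a mean difference of -0.57 on the log2 scale (exact permutation p = 0.0556, adjusted p = 0.0695).

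The subunits of the GABA-B receptor were distributed unequally. Gabbr1 was higher in processes, by a log2 fold change of 1.43 (SE 0.194, adjusted p = 0.000159) in control and 1.48 (SE 0.194, adjusted p = 0.00012) in PTX cultures, and no process library overlapped the somata libraries, all on the TMM scale, while by library size alone the values were -0.37 and -0.34. Gabbr2 was lower in processes in control cultures, with a log2 fold change of -0.45 (SE 0.109, adjusted p = 0.0065), and had a log2 fold change of -0.06 in PTX cultures (SE 0.109, adjusted p = 0.645), where the somata level had fallen. The ratio of Gabbr1 to Gabbr2 reads was 6.37 and 8.79 in somata control libraries, 7.99 and 11.8 in somata PTX libraries, 24.5 and 31.3 in processes control libraries and 24.5 and 33.0 in processes PTX libraries. Every process library stood above every somata library, with a mean difference of 1.72 on the log2 scale (exact permutation p = 0.0556, adjusted p = 0.0695), and this ratio does not depend on the scaling. Between PTX and control the mean difference was 0.21 (exact permutation p = 0.444, adjusted p = 0.493, without regard to the pairing). The ratio was higher upon PTX in all 4 pairs of libraries with the same replicate number, but replicate 1 in processes was nearly equal (24.50 in control and 24.52 upon PTX). The difference on the log2 scale was 0.38 in somata and 0.04 in processes.

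The summed level of the astrocyte list was higher in processes, as was the level of Gabbr1, but its genes did not move together. The list summed to between 12695 and 14255 CPM in processes control libraries and to between 10788 and 12065 CPM in processes PTX libraries, against 3651 to 4077 and 2756 to 3799 CPM in the somata libraries of the same treatments. Gfap alone was at 11110 and 9382 CPM in processes control libraries. In control cultures 3 of its 7 tested genes were higher in processes, among them Gfap (log2 fold change 2.60) and S100b (2.16), and 2 were lower, Slc1a3 (-0.56) and Gja1 (-0.38), where 47.7% of all genes were called. The oligodendrocyte list summed to between 469 and 604 CPM in processes control libraries, against 293 to 453 CPM in somata, with 1 of its 8 genes called, Olig1 (higher). None of the 8 astrocyte genes was at 0 in all libraries. The part of astrocyte RNA in the level of Gabbr1 in processes was not tested.

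The scaling sets the zero of this comparison. The median gene had a log2 fold change between processes and somata of -0.05 with TMM in control cultures, and of -1.86 (-1.87 in PTX cultures) with library size as the only scaling, in which mitochondrial ribosomal RNA counts in full. With library size the values of Gabbr1 lay below 0 but 1.49 and 1.53 above the median gene in control and PTX cultures, and 0 of the 7 genes were called higher and 6 lower in each, against 1 and 5 in control and 1 and 3 in PTX cultures with TMM.

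In the pathway lists the compartments also differed gene by gene, beside the 47.7% of all genes called: 8 of 13 GABA-A subunits, 9 of 16 partners, 4 of 5 uptake and breakdown genes and 5 of 6 GIRK and G protein genes were called. Of the 13 GABA-A subunits 8 were lower and 0 higher in processes of control cultures, led by Gabrd (-2.05), and the median was -0.79 against -0.05 over all genes. Of the 16 partners of gephyrin and neuroligin-2, 6 were higher, led by Iqsec3 (2.15), Dynll2 (1.65), a dynein light chain that binds gephyrin, and RGD1562618 (1.52), which RefSeq names Insyn1, an inhibitory synaptic protein, and 3 were lower, led by Slitrk3 (-1.61). Among the uptake and breakdown genes the mitochondrial enzymes Aldh5a1 (1.17) and Abat (1.07), which degrade GABA, were higher in processes, and 2 were lower, among them the transporter Slc6a13 (-3.30). Of the 6 GIRK and G protein genes, Gnai2, a G protein subunit, (1.05) was higher and 4 were lower, led by Kcnj3 (-1.40), Kcnj6 (-0.82) and Kcnj9 (-0.70).

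Across the 4 conditions the order of levels differed between the genes. Gad1 was highest in somata of PTX cultures (137 ± 20.8 CPM, SD, n = 2), followed by somata control (77.6 ± 18.1), processes PTX (60.1 ± 5.11) and processes control (40.6 ± 6.12), and no neighbours in this order overlapped. Gad2 was highest in somata of PTX cultures (254 ± 46.7 CPM), and the next 2 conditions, processes PTX (153 ± 34.7) and somata control (134 ± 30.1), overlapped, with processes control lowest (80.9 ± 13.7). Slc32a1 lay at 28.7 ± 4.68 and 28.2 ± 5.33 CPM in somata control and PTX libraries, which overlapped, and at 20.9 ± 4.84 and 18.7 ± 2.63 CPM in processes PTX and control libraries, which overlapped too. Gphn was at 54.9 ± 1.16 CPM in somata PTX, 51.5 ± 1.62 in somata control, 40.9 ± 2.06 in processes control and 38.9 ± 4.69 in processes PTX libraries, and only the process libraries overlapped. All neighbours overlapped for Nlgn2, whose means lay between 73.0 and 83.5 CPM. Gabbr1 had 1849.97 ± 240.01 CPM in processes control and 1801 ± 266 in processes PTX libraries, which overlapped, and 685 ± 139.98 and 646 ± 126 CPM in somata control and PTX libraries, which overlapped as well. Gabbr2 stood apart only in somata control (90.6 ± 2.03 CPM), and the other 3 conditions, between 63.1 and 66.5 CPM, overlapped.

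Over the 8 libraries Gad1 and Gad2 followed each other closely (Pearson's r = 0.94 on log2 CPM), as a description of libraries that share compartment, treatment and replicate. Among the 10207 genes that averaged 5 CPM or more, the patterns most like Gad1 were those of Bcat1, Nrn1 and Ptgs2 (r = 0.99 each), of which Nrn1 and Ptgs2 are known as activity-regulated genes, with log2 fold changes for the mean PTX effect of 0.62 and 1.03. Those most like Gad2 were Inpp4b, Kcnt1 and Pdk3 (r = 0.99 each), and Kcnt1, a sodium-activated potassium channel, had a log2 fold change of 0.94 for the mean PTX effect. Slc32a1 was most like Ncoa7 (r = 0.99), Rapgef6 and Rdh13 (r = 0.98 each), and Gphn was most like Afg3l2, Hs3st1 and Fnbp4 (r = 0.99 each). The closest patterns to Nlgn2 were those of Pgbd5 (r = 0.97), Cyb5r1 and Nars2 (r = 0.95 each), and those to Gabbr2 were Dpp10, Negr1 (r = 0.96 each) and Ahcyl2 (r = 0.95). Gabbr1 was most like Mbd3, AABR07031756.2 and Ppp1r14b (r = 0.998, 0.998 and 0.997), which were all higher in processes of control cultures, with log2 fold changes of 1.54, 0.70 and 1.57. All these similar genes were chosen for their match over the same 8 libraries. The direction of their fold changes follows from that choice and is no separate result.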

How the data were processed

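RNA of somata and processes from control and PTX cultures was sequenced, with 2 libraries per condition and 8 in all. The authors trimmed and aligned the reads, assigned them to Ensembl genes with featureCounts and deposited raw counts summed per gene symbol. The submitters' processing notes name STAR and the build Rnor_6.0, while the study's methods name Subread. The library kit keeps the strand, but the strand setting of the counting is not given in the sources used here, so reads of genes that overlap (in RefSeq, pseudogenes within Gphn and noncoding RNAs at Gabbr2) are of uncertain origin. The authors' tables of PTX comparisons, which hold their log2 fold changes, test statistics and p-values, were not used.

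A symbol was tested if 2 or more libraries held over 20 of its reads (14309 of 28909 symbols). The counts were scaled by TMM and fitted with edgeR 4.0.16 in R 4.3.3, with 1 coefficient for each condition over all 8 libraries, and contrasts were tested with glmQLFTest and adjusted by Benjamini-Hochberg over all tested genes (threshold 0.05). Intervals are 95% intervals from the same fit. Log2 CPM for the correlations used a prior count of 2. Ratios were formed from raw counts within a library and tested by exact permutation. The alternatives tried were DESeq2 1.42.0, edgeR's likelihood ratio test, other scalings and filters, only the libraries compared, the replicate block, and leaving out each library. The fits were also run on simulated counts with 200 changed genes. These were drawn without a replicate effect, unlike the data, and no result given here rests on them.

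The replicate numbers in the labels pair the libraries: deviations from the group means of libraries with the same number correlated across genes with r between 0.27 and 0.54 in all 6 pairs of conditions. Library totals are given with the levels, and the median tested gene had between 96 and 110 reads in process libraries and between 268 and 319 in somata, so that values in processes are less precise. All 7 genes are named, and of each list at most 3 genes that rose and 3 that fell by size of change in the comparison described, plus for each of the 7 genes the 3 with the highest correlation. Some list genes are counted but not reported by name here. The genes and lists were chosen with earlier results of these data known. Start-site sequences came from RefSeq (GRCr8), in which all 7 symbols were matched.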

Additional observations from a re-analysis of the deposited data

How the results depend on the processing

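Of 630 values of the 7 genes under alternative settings, 545 kept their direction and their side of the threshold, 25 were no longer past it, 12 came past it and 48 changed sign, 2 of these 48 as calls (Nlgn2 between compartments by library size). The number of genes called for PTX in processes was 2 without a filter and 2 with the replicate block, against 1. The block moved the calls of Gad1, Gabbr2 and Slc32a1 given above and changed no other call of the 7 genes. In the lists it raised the number of calls, as given with them. With 1 library left out, where the lone library of its condition was assumed to vary like the others, this number was 0 each time, it lay between 0 and 2 (against 3) for PTX in somata, and between 3 and 5 (against 6) for processes against somata in control cultures. Gabbr2 in somata had an adjusted p of 0.129 by library size, and Gphn between compartments in control cultures one of 0.0834 by DESeq2 and of 0.0504 with only the 4 libraries compared. For these changes the cause was not tested. The calls of Gad1 and Gad2 for the mean of both compartments held in all alternatives.

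Changes of sign concerned values near 0 or the scaling of compartments. By upper quartile the log2 fold change of Nlgn2 was -0.0200 for PTX in somata and -0.0792 between compartments in control cultures. By library size it was 0.0431 for Slc32a1 for PTX in somata, 0.0060 for Gabbr1 for PTX in processes, -0.0208 for the interaction of Gad2, -1.70 and -1.64 for Nlgn2 and -0.37 and -0.34 for Gabbr1 between compartments in control and PTX cultures. The interaction of Gad2 was -6.1e-05 without mitochondrial genes and -0.0098 with the replicate block, which gave Nlgn2 -5.8e-05 for PTX in somata. With 1 library left out, values for PTX in somata ran from -0.24 to 0.15 for Slc32a1, from -0.0554 to 0.0429 for Nlgn2 and from -0.31 to 0.13 for Gabbr1. For PTX in processes they ran from -0.0941 to 0.38 for Slc32a1, from -0.20 to 0.0452 for Gphn, from -0.12 to 0.29 for Nlgn2 and from -0.20 to 0.10 for Gabbr1. For the mean of both compartments they ran from -0.0592 to 0.18 for Slc32a1, from -0.0548 to 0.0685 for Gphn, from -0.0603 to 0.14 for Nlgn2 and from -0.17 to 0.0463 for Gabbr1. For the interaction they ran from -0.25 to 0.23 for Gad2, from -0.0698 to 0.41 for Slc32a1, from -0.12 to 0.28 for Nlgn2 and from -0.16 to 0.27 for Gabbr1. Between compartments they ran from -0.0929 to 0.31 for Nlgn2 in control and from -0.14 to 0.0295 for Gabbr2 in PTX cultures.

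When the prior count was 0.5 instead of 2, the third most similar gene to Gad1 was Fam19a2 in place of Ptgs2, and the other similar genes remained. With 2 libraries per condition and 96 to 110 reads for the median gene in process libraries, a missed threshold does not show that a level was unchanged.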
